A study of Mus musculus with 16 samples.

Results

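The genes described here are 49 genes of DNA replication and of entry into S phase in sorted erythroid cells of mouse foetal liver. They are a fixed list of symbols, with no threshold on measured values, out of 55416 genes in a read-count table. Every one of the 49 symbols was found once in the table, and each gene was expressed highly enough to be tested in all comparisons below. By role they are 6 genes of origin licensing, 6 of the MCM helicase, 8 of helicase activation, and 8 of primase and the polymerases. The rest are 11 genes of the sliding clamp, clamp loader, RPA and Okazaki fragment processing, 4 of nucleotide supply, and 6 cyclin E and E2F genes.

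Each origin of replication is licensed in G1, when the origin recognition complex, Cdc6 and Cdt1 load the ring-shaped MCM helicase onto DNA. It is fired in S phase, when the kinases Cdc7-Dbf4 and cyclin E-Cdk2 recruit Cdc45 and GINS to it. Polymerases, the clamp Pcna and its loader then copy both strands while ribonucleotide reductase, thymidylate synthase and thymidine kinase feed them with nucleotides. E2F transcription factors switch on much of this set of genes. In erythropoiesis the cells divide several times between the CFU-E, a colony-forming progenitor, and the late erythroblast, with S phase tied closely to the onset of the erythroid programme.

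The libraries came from E13.5 foetal livers of embryos with a constitutive deletion of the promoter region of Nprl3, a gene for a subunit of the GATOR1 complex that restrains the growth kinase mTORC1 when nutrients are short. The deletion is present in every cell of the embryo and spares the α-globin enhancers that lie within the Nprl3 gene. There were 4 Nprl3+/+ (wild-type) embryos, of which numbers 0 and 8 were male and 1 and 5 female, 2 male Nprl3+/- (Het) embryos, numbers 3 and 4, and 2 Nprl3-/- (KO) embryos, number 2 female and number 9 male. From each embryo 1 library was made of S1 cells (CFU-E and other early cells) and 1 of S3 cells (basophilic erythroblasts), sorted by their surface Ter119 and CD71, so that replicates are separate embryos and the S1 and S3 libraries of 1 number come from the same animal. All 16 libraries share the sort, the amplification of RNA from small numbers of cells, and the selection of poly(A)+ RNA.

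The libraries held 20666044 to 37609502 counts. Levels are given as CPM, counts scaled to 1 common library size with TMM factors. Nprl3 had 881 to 1588 counts in wild-type S1 libraries and 13 and 32 in the KO ones. At S3 it had 2953 to 3883 in wild-type and 1730 and 2069 in KO. The paper states that non-coding polyadenylated RNAs made from the α-globin enhancers confound measures of Nprl3 mRNA. Its PCR assay specific to the promoter detected no Nprl3 mRNA in Nprl3-/- cells. Where in the gene the S3 reads counted here lie was not tested. The source fields of the labels name an embryonic stem cell line, but 5 of 7 stem cell markers were at 0 in all 16 libraries and the sum of all 7 did not exceed 0.109 CPM. In turn, 9 erythroblast markers summed to 103060 to 136690 CPM at S3. At S1 they summed to 6360.2 and 6690 CPM in wild-type embryos 0 and 8 and to 1606 to 2688 CPM in the other 6 libraries. The 3 primitive erythroid globins summed to 51.1 and 87.3 CPM in those 2 S1 libraries, to 29 CPM in KO embryo 9 and to 2.02 to 5.17 CPM in the rest of the S1 libraries. In the 8 S3 libraries they summed to 2113.8 to 4377.5 CPM. The S1 libraries differed in markers of other cells too. Neutrophil markers, 10 of 11 of them detected, summed to 196 and 121 CPM in wild-type embryos 0 and 8 and to 1104 to 1650 CPM in the other S1 libraries, and to 1.11 to 13.7 CPM in the 8 S3 libraries. The sums of 14 hepatoblast markers were 387 and 384 CPM in embryos 0 and 8, 195 CPM in KO embryo 9 and 31.6 to 86.6 CPM in the rest. The part of these differences in the results below was not tested, and counts are also given without wild-type embryos 0 and 8.

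Some of the promoters hold a sequence feature that the choice of symbols did not use. RefSeq promoters, from 250 bases before to 50 after a start, were at hand on GRCm38.p6 for 39 of the 49 genes, and were searched on both strands for the 4 spellings TTTCCCGC, TTTCGCGC, TTTGCCGC and TTTGGCGC of an E2F site. At least 1 site was found for 14 of the 39 genes, or 35.9%, against 704 of all 27025 genes in the table, or 2.6%. By role, 4 of 5 MCM genes with a promoter held a site (Mcm3, Mcm5, Mcm6 and Mcm7), as did 3 of 5 licensing genes (Orc1, Cdc6 and Cdt1) and 3 of 6 of primase and the polymerases (Pola1, Pold1 and Pole2). A site was also found in 2 of 10 of the clamp and fragment processing group (Rfc3 and Lig1), 1 of 5 of helicase activation (Gins3), 1 of 4 of cyclin E and E2F (E2f2) and 0 of 4 of nucleotide supply. A match is a description of the letters and not a measured binding site. The stretches around the sites of 7 genes are shown because they hold this feature in several of the roles, with the sites in capitals, 5′ to 3′ on the strand of the gene. Those of Mcm5 and Mcm6 hold overlapping sites on opposite strands, and the site of E2f2 lies after the annotated start while the others lie before it. Positions are on GRCm38.p6, whereas the counts were made on mm39.
Cdc6, chr11:98907983-98908050, + strand: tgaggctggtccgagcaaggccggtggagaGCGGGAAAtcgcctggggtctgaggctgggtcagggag
Orc1, chr4:108579397-108579453, + strand: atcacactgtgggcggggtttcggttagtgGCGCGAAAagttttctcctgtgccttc
Mcm5, chr8:75109326-75109397, + strand: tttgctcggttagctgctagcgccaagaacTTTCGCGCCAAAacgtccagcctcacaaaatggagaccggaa
Mcm6, chr1:128359715-128359845, - strand: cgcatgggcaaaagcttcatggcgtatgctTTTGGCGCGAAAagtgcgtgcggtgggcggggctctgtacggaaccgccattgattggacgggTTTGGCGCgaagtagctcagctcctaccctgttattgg
Gins3, chr8:95633488-95633555, + strand: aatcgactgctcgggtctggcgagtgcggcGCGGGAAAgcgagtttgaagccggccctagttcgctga
Pola1, chrX:93632256-93632323, - strand: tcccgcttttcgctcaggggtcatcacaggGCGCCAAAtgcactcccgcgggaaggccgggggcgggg
E2f2, chr4:136172302-136172323, + strand: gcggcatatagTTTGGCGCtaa

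The first question was how the replication genes change as wild-type cells mature from S1 to S3. Relative to the typical gene, 33 of the 49 were higher at S3, 1 was lower and 15 did not pass the test. E2f2 (31.6-fold), Rrm2 (5.16-fold), E2f8 (3.86-fold), Gins4 (2.93-fold) and E2f4 (2.84-fold) were at the head, and Pold2 was the one that fell. The E2f2 value rests on S1 levels that differ widely between embryos, and was 47.3-fold without embryo 8 and 64.8-fold without embryos 0 and 8. Over all 13514 genes tested, 30.6% were called higher and 35.0% lower by the same test (edgeR's quasi-likelihood test with TMM scaling, Benjamini-Hochberg adjusted p under 0.05). The median log2 fold change was 0.69 for the 49 genes and -0.084 for all genes tested. Of the 49, 34 were higher at S3 than at S1 in all 4 wild-type embryos alike (35.3% of all genes tested), and 34 in all 8 embryos (33.2% of 12735 genes). Without wild-type embryo 8, 35 were higher and 1 lower (31.7% and 33.7% of 13544 genes), and without embryos 0 and 8, 38 and 1 (28.9% and 33.5% of 13591 genes). Without embryo 5, 25 were higher and 1 lower (25.3% and 29.4% of 13493 genes), and Cdc6, Gmnn, Mcm3, Mcm5, Mcm6, Cdc7, Pole2 and Rfc2 no longer passed. Neutrophil markers were higher at S1, as given above, and their part in these changes was not tested. In bulk RNA, more cells in S phase and more of these RNAs in each cell cannot be told apart.

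These directions depend on what the libraries are scaled to. TMM, which sets the typical gene to no change, gave factors of 1.33 to 1.51 at S1 and 0.660 to 0.770 at S3. Globins took 10.0% to 11.8% of the counts at S3, against 0.0738% to 1.07% at S1. With globin genes out of the scaling, 1 higher call in wild-type was lost (Cdc7), and the part of globins in the factors was not tested. The share of all counts in a library that the 49 genes held together was 1.48%, 1.25%, 1.40% and 1.84% in the S1 cells of wild-type embryos 0, 1, 5 and 8 and 1.53%, 1.63%, 1.66% and 1.42% in their S3 cells. The wild-type ranges overlapped, while within an embryo the share was higher at S3 in 3 of 4, all but embryo 8. It went from 1.47% and 1.40% to 1.61% and 1.63% in Het embryos 3 and 4 and from 1.35% and 1.37% to 1.63% and 1.47% in KO embryos 2 and 9, so that it was higher at S3 in 7 of 8 embryos. With library size alone as the scale, 13.8% of all genes tested were called higher and 63.1% lower. On that scale 5 replication genes stayed higher (E2f2, Rrm2, Tyms, Gins4 and Lig1), 21 were lower, and their median was -0.35 against -1.10 for all genes. Thus 5 genes rose and Pold2 fell on both scales, and each other change from S1 to S3 is relative to the typical gene, which lost share at S3.

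**Figure D1:**
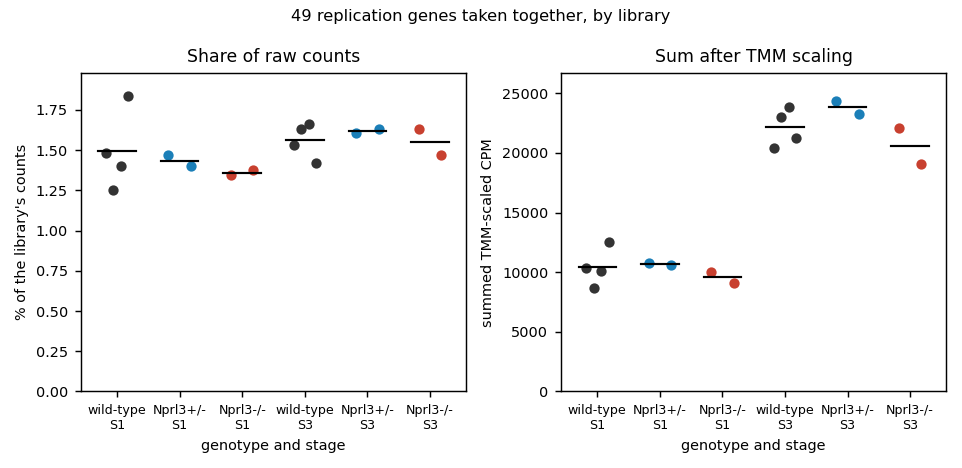
The 49 genes summed in each library, by genotype and stage, as a percentage of raw counts (left) and as the sum of their TMM-scaled CPM (right). Points are embryos and lines group means, and the share overlaps between stages in wild-type (1.25% to 1.84% at S1, 1.42% to 1.66% at S3) while the scaled sum does not (8678 to 12554 CPM at S1, 20396 to 23885 CPM at S3).

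**Figure D2:**
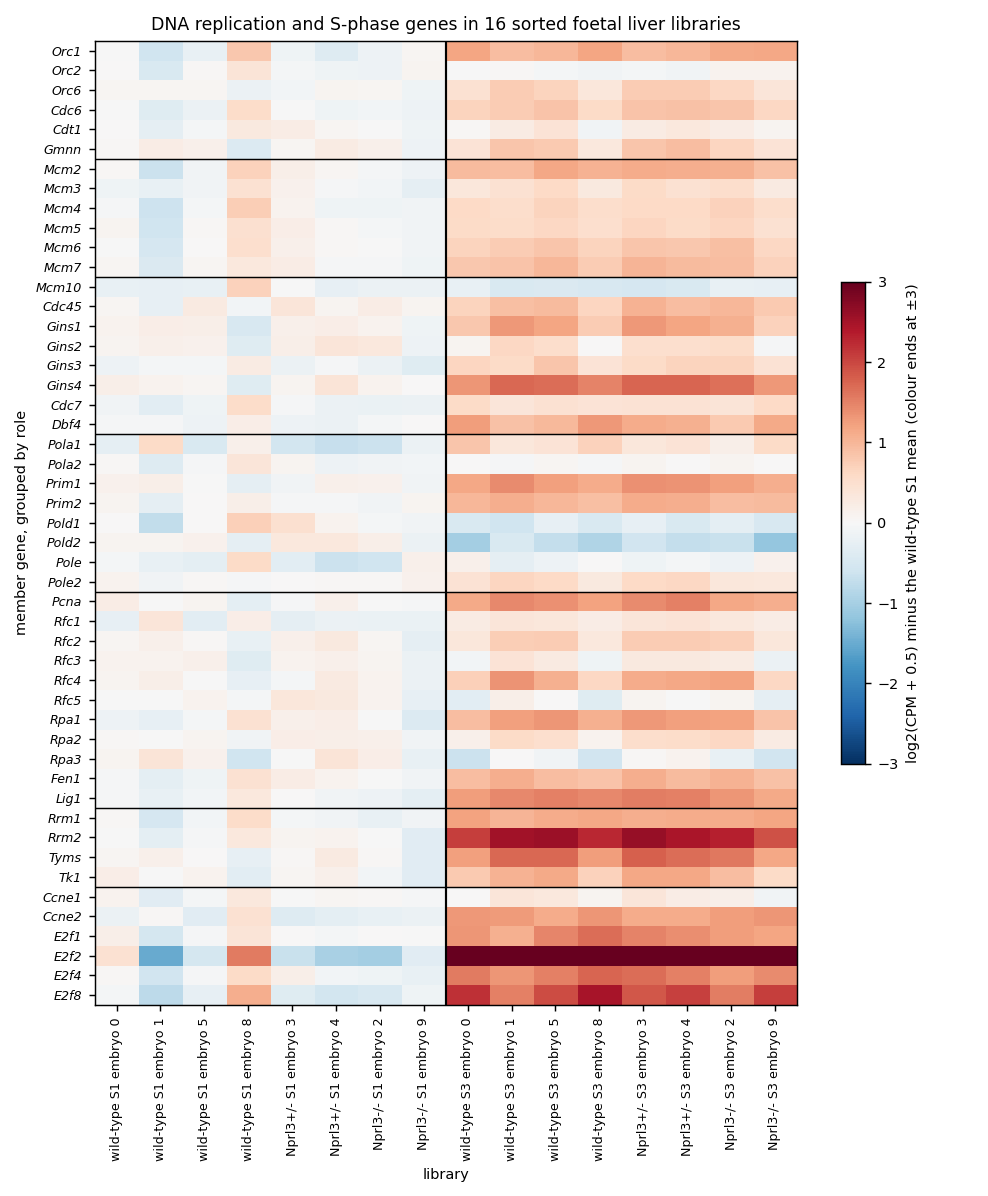
Level of each of the 49 genes (rows, by role) in the 16 libraries (columns), as log2(CPM + 0.5) minus the mean of the 4 wild-type S1 libraries. Most rows turn to higher values at S3 in each genotype, E2f2 goes beyond the colour scale, and Pold2 turns to lower values.

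Below, levels are TMM-scaled CPM. Wild-type values are in the order of embryos 0, 1, 5 and 8. Fold changes are S3 against S1, with the log2 fold change ± its standard error and edgeR's adjusted p. Among the licensing genes, 4 of 6 rose and 2 did not pass. Without embryo 5 only Orc1 and Orc6 of them passed, and Cdc6 and Gmnn did not. Cdc6, the ATPase that joins the origin recognition complex to load MCM, was at 201, 157.7, 180.2 and 301 CPM at S1 and 325, 345, 366 and 305 CPM at S3. That is a rise of 1.61-fold (0.69 ± 0.18, adjusted p = 0.0063). Orc1, the largest subunit of the origin recognition complex, was at 44.2, 29.2, 38.1 and 77.2 CPM at S1 and 100.2, 84.3, 88.3 and 100.2 CPM at S3 (2.01-fold, 1.00 ± 0.25, adjusted p = 0.0045), the largest rise of the licensing genes. For both genes every S3 value lay above every S1 value, and embryo 8 was the highest of the S1 values. Gmnn, whose product geminin binds Cdt1 in S and G2 and so blocks a second licensing, went from 175, 198, 188 and 128 CPM to 226, 301, 293 and 213 CPM (1.49-fold, adjusted p = 0.02). The 4 S3 values were again above the S1 values, and embryo 8 was here the lowest at S1. Its partner Cdt1, the loading factor that is destroyed once S phase starts, had 131, 108, 125 and 157 CPM at S1 and 133, 154, 171 and 120.2 CPM at S3. The Cdt1 ranges overlapped, and its log2 fold change of 0.16 (95% interval -0.18 to 0.50) did not pass the test (adjusted p = 0.38). The other 2 origin recognition complex genes among the 49, Orc6 and Orc2, differed, in that Orc6 rose 1.48-fold (adjusted p = 0.0059) while Orc2 had a log2 fold change of -0.049 (adjusted p = 0.8).

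The 6 genes Mcm2 to Mcm7, which encode the replicative helicase, moved within a narrow range, with log2 fold changes from 0.42 (Mcm3) to 0.97 (Mcm2), and 5 of 6 rose while Mcm4 (0.52 ± 0.23, adjusted p = 0.069) did not pass. Of the 6, 2 (Mcm2 and Mcm7) were called without embryo 5, and 3 (Mcm2, Mcm6 and Mcm7) without embryo 0 or embryo 1 or with upper-quartile scaling. Mcm2 was at 410.1, 256, 373 and 647 CPM in S1 cells and at 774, 758, 897 and 827 CPM in S3 cells (1.96-fold, adjusted p = 0.0035). Mcm5 was at 560.1, 348, 535 and 733 CPM and 784, 772, 813 and 741 CPM (1.44-fold, 0.53 ± 0.19, adjusted p = 0.03), and its embryo 8 rose least, from 733 to 741 CPM. The S3 libraries agreed more closely than the S1 libraries for these genes, as for Mcm2, where the SD was 164 CPM at S1 and 62.6 CPM at S3. With embryo as a replicate block Mcm4 passed too, as did Pola1 and Rpa2, giving 36 genes higher (33.3% of all genes tested were higher and 36.3% lower in that fit).

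Of the 8 genes that turn the loaded helicase into a moving one, 6 rose and Mcm10 and Gins2 did not pass. Gins4, a subunit of the GINS complex, rose most of them, 2.93-fold from 94.6, 91.4, 88.5 and 65.9 CPM to 212, 281, 271 and 236 CPM (1.55 ± 0.17, adjusted p = 2.26e-05). The other GINS subunits rose less, Gins1 2.01-fold and Gins3 1.55-fold, and Gins2, at 74.7, 79.5, 78.1 and 54.6 CPM and 75.4, 109, 102 and 72 CPM, had a log2 fold change of 0.32 (adjusted p = 0.17) although it was higher at S3 in each embryo. Cdc45, which travels with MCM and GINS at the fork, went from 119, 95.4, 137 and 107 CPM to 181, 214, 221 and 178 CPM without overlap (1.74-fold, adjusted p = 9.06e-04). Cdc7, the kinase that fires origins, stood at 49, 42.3, 47.7 and 76.8 CPM and 78, 67.7, 71.7 and 69.9 CPM, with embryo 8 lower at S3, and lay at the threshold (0.43 ± 0.17, adjusted p = 0.0499). Dbf4, the subunit that activates Cdc7, rose 2.18-fold from 71.3, 71.3, 65.7 and 84.3 CPM to 175, 134, 143 and 182 CPM (1.12 ± 0.15, adjusted p = 7.03e-05), and its ranges were far apart. Mcm10, a scaffold at the fork, was at 97.3, 95.4, 97.8 and 183 CPM and 97.4, 82.4, 83.9 and 81 CPM, so that embryo 8 alone stood high at S1, and its log2 fold change of -0.44 did not pass (adjusted p = 0.079).

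Primase and the polymerases were the group with the smallest median change (0.24), with 3 of 8 higher, 1 lower and 4 not called. Prim1, the catalytic subunit of primase, rose 2.34-fold, from 141, 145, 128 and 107 CPM to 288, 346, 305 and 279 CPM (1.22 ± 0.15, adjusted p = 5.81e-05), and its regulatory partner Prim2 rose 1.99-fold (adjusted p = 6.12e-05). Pola1, the catalytic subunit of polymerase α, was at 52.4, 95.3, 46.6 and 70.3 CPM and 113, 80.5, 84.2 and 103 CPM, where embryo 1 went down and the others up, and its log2 fold change of 0.53 did not pass (adjusted p = 0.07). Pold2, which encodes a small subunit of the lagging strand polymerase δ, went the other way. It fell from 194, 195, 202 and 152 CPM to 91.2, 134, 112 and 98.7 CPM (-0.77 ± 0.17, adjusted p = 0.0021), with all S3 values under all S1 values, and it was the one gene of the 49 that was lower at S3 in all 8 embryos, against 37.6% of all genes. Pold1, the catalytic subunit of polymerase δ, was at 109, 64.7, 109 and 176 CPM and 78.9, 70.9, 90.5 and 78.9 CPM, which overlapped, with a log2 fold change of -0.50 (adjusted p = 0.086). Pole, the catalytic subunit of the leading strand polymerase ε, was the lowest of all 49 per length at both stages, at 27.7, 24.9, 23.4 and 43.8 CPM and 32.5, 23.9, 26.1 and 29.2 CPM (log2 fold change -0.085, adjusted p = 0.73), while its partner Pole2 rose 1.42-fold (adjusted p = 0.0064).

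Behind the fork, 6 of 11 genes rose and 5 did not pass. Pcna, the sliding clamp, went from 488, 417, 447 and 339.9 CPM to 927, 1139.7, 1092 and 962 CPM. It rose 2.43-fold (1.28 ± 0.16, adjusted p = 5.98e-05) without overlap. Lig1, the ligase that seals Okazaki fragments, rose most of the group, 2.67-fold from 204, 178, 197 and 259.6 CPM to 498, 566, 596 and 565 CPM (1.42 ± 0.14, adjusted p = 9.80e-06), and it is 1 of the 5 genes that rose on the library-size scale as well (0.38, adjusted p = 0.036). Fen1, the nuclease that trims the fragments, was at 12.2, 10.2, 11.4 and 17.6 CPM and 24.4, 27.1, 24.4 and 23.2 CPM (1.95-fold, adjusted p = 6.50e-04). The exons of Fen1 overlap those of Tmem258 and Gm10143 on the other strand, and read pairs that fell on more than 1 gene were not counted, so its level is uncertain. In the clamp loader, Rfc4 rose 1.94-fold and Rfc2 1.46-fold (adjusted p = 0.0013 and 0.012), whereas Rfc3, Rfc5 and the large subunit Rfc1 had log2 fold changes of 0.12, -0.11 and 0.27 and did not pass. Rfc1 was at 76.5, 116, 72.5 and 104.2 CPM at S1 and 107, 117, 115 and 106 CPM at S3 (adjusted p = 0.18). The 3 subunits of RPA, the trimer that coats single-stranded DNA, did not move as 1. Rpa1 rose 2.19-fold from 184, 171, 196 and 283 CPM to 391, 480.2, 513 and 427 CPM (adjusted p = 1.68e-04), Rpa2 had a log2 fold change of 0.35 (adjusted p = 0.057), and Rpa3 was at 82.5, 102, 86.1 and 51.4 CPM and 50.2, 79.2, 72.3 and 52.4 CPM, lower at S3 in 3 of 4 embryos (-0.35 ± 0.24, adjusted p = 0.23).

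The 4 genes of nucleotide supply all rose, with a median log2 fold change of 1.29. Rrm2, the small subunit of ribonucleotide reductase, whose level limits the enzyme in S phase, went from 1055, 872, 1037 and 1328 CPM to 4489, 6059, 6320.0 and 5129 CPM, which is 5.16-fold (2.37 ± 0.18, adjusted p = 2.11e-06). The large subunit gene Rrm1 rose 2.13-fold, from 620.5, 432, 573 and 890.2 CPM to 1395, 1240.5, 1318 and 1349.6 CPM (adjusted p = 5.39e-04), so the 2 subunits of 1 enzyme differed in the size of the change. Per kilobase of exon, Rrm2 had the highest level of all 49 at both stages, 387 ± 68.1 CPM per kb at S1 and 1985 ± 305 CPM per kb at S3 (SD, n = 4), against 120 ± 5.92 CPM per kb for Rrm1 at S3. Tyms, thymidylate synthase, rose 2.81-fold, from 241, 256, 232 and 194 CPM to 537, 756, 753 and 549 CPM (1.49 ± 0.18, adjusted p = 3.75e-05). Tk1, the thymidine kinase of the salvage pathway, rose 1.89-fold, from 164, 142, 153 and 115 CPM to 246, 295, 315 and 228 CPM (adjusted p = 7.46e-04). At S3 the embryos 1 and 5 were above embryos 0 and 8 for Rrm2, Tyms and Tk1 and below them for Rrm1.

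The cyclin E and E2F genes had the largest median change (1.45), and 5 of 6 rose. E2f2, an activating E2F of the erythroid lineage, went from 23.1, 5.53, 11.4 and 50 CPM to 762, 485, 617 and 907 CPM (4.98 ± 0.61, adjusted p = 5.00e-05). Relative to their mean, its S1 values were spread more widely than those of any other of the 49 (22.5 ± 19.7 CPM, SD, n = 4), and they were higher in the 2 embryos with the higher globin share at S1, which was 1.07%, 0.184%, 0.290% and 1.00% in the same order, though the part of that share in the E2f2 values was not tested. E2f1, an activator as well, rose 2.62-fold from 63, 38.8, 54.6 and 72.6 CPM to 141, 118, 156 and 179.5 CPM (adjusted p = 1.42e-04). The repressors rose too: E2f4, which works with the pocket proteins, was at 341, 223, 325 and 495 CPM and 985, 830.1, 949 and 1112 CPM (2.84-fold, adjusted p = 1.28e-04), and the atypical E2f8 at 24.9, 14.7, 21.6 and 55.7 CPM and 119, 74.1, 102 and 147 CPM (3.86-fold, adjusted p = 9.07e-04). For all 4 E2F genes the S3 values lay above the S1 values, and embryo 8 was the highest at both stages. Of the 2 E-type cyclins, which activate Cdk2 at the start of S phase, Ccne2 rose 2.35-fold from 148, 171, 132 and 229.7 CPM to 409, 404, 359 and 417 CPM (adjusted p = 9.68e-05). Ccne1 was at 342, 250.1, 304 and 396 CPM and 319, 409, 397 and 338 CPM, which overlapped, and its log2 fold change of 0.19 did not pass (adjusted p = 0.3).

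**Figure D3:**
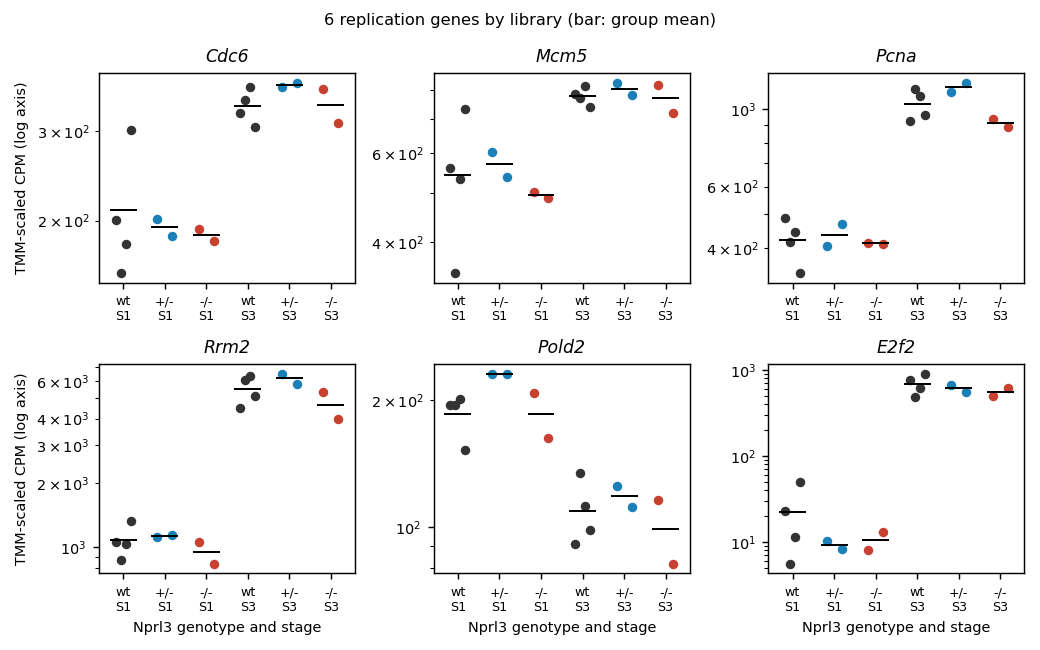
TMM-scaled CPM (log axis) of Cdc6, Mcm5, Pcna, Rrm2, Pold2 and E2f2 in each library by Nprl3 genotype and stage, with points for embryos and lines for group means. Cdc6, Mcm5, Pcna, Rrm2 and E2f2 are higher and Pold2 lower at S3, and none of the 6 differed between KO and wild-type by edgeR at either stage.

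Per kilobase of exon, the helicase genes formed a band at S3, from 109 to 129 CPM per kb over the 4 wild-type embryos for Mcm2 to 237 to 266 CPM per kb for Mcm6. The subunits of GINS and of the clamp loader were further apart on that scale. They ran within GINS from 16.8 ± 2.06 CPM per kb (Gins3) to 185 ± 23.8 CPM per kb (Gins4; SD, n = 4), and within the clamp loader from 18.5 ± 0.907 CPM per kb (Rfc1) to 271 ± 64.9 CPM per kb (Rfc4). Pcna (429 ± 42.4 CPM per kb) followed Rrm2 in the order at S3, with E2f4 next (395 ± 47.3 CPM per kb), and the ranges of these 2 overlapped, from 386 to 475 and from 339 to 453 CPM per kb. The length used is that of all annotated exons merged, which is longer than any 1 transcript and so lowers the value of genes with many isoforms. The exons of 17 of the 49 genes overlap those of another gene.

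Most of these genes rose in Het and KO embryos as well. In KO embryos 34 of 49 were higher at S3 and 1, Pold2, was lower (24.7% and 28.4% of all 13446 genes tested were called higher and lower), with a median log2 fold change of 0.81 against -0.087 for all genes. With embryo as a replicate block 37 were higher and Pold1 and Rpa3 joined Pold2 as lower, where 31.9% and 36.1% of all genes were called. In Het embryos 39 were higher and 4 lower (Mcm10, Pold1, Pold2 and Rfc5; 36.3% and 39.6% of 13085 genes), with a median of 0.76. The 3 comparisons share no library, and 31 of the 49 genes, or 63.3%, were called higher in all 3, against 24.2% of the 12735 genes tested in all 3. E2f2 rose from 7.97 and 13.1 CPM to 501 and 620.4 CPM in KO embryos 2 and 9 (log2 fold change 5.71 ± 0.33, adjusted p = 2.25e-04) and from 10.3 and 8.2 CPM to 675 and 555 CPM in Het embryos 3 and 4 (6.05 ± 0.16, adjusted p = 4.86e-21). Rrm2 went from 1057 and 832 CPM to 5341 and 3967 CPM in KO (2.29 ± 0.24, adjusted p = 9.15e-04) and from 1119 and 1143 CPM to 6502 and 5841 CPM in Het (2.45 ± 0.15, adjusted p = 1.42e-13). KO and Het hold 2 embryos each, and edgeR shares its estimate of spread between genes. The sizes of these adjusted p are therefore not compared between genotypes. With 1 embryo left out, a fit over all libraries was used, which assumes that the lone embryo varies like the other groups. In KO it called 19 genes higher without embryo 2 and 26 without embryo 9, and 1 lower in each (19% and 19.9% of all genes higher, 20.6% and 22.3% lower). In Het it called 22 higher without embryo 3 and 22 without embryo 4, with 1 and 0 lower (20.7% and 20.6% of all genes higher, 21.9% and 23.4% lower). On the library-size scale 8 were higher and 14 lower in KO (11.7% and 52.9% of all genes tested), and 12 higher and 22 lower in Het (17.8% and 63.9%).

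**Figure D4:**
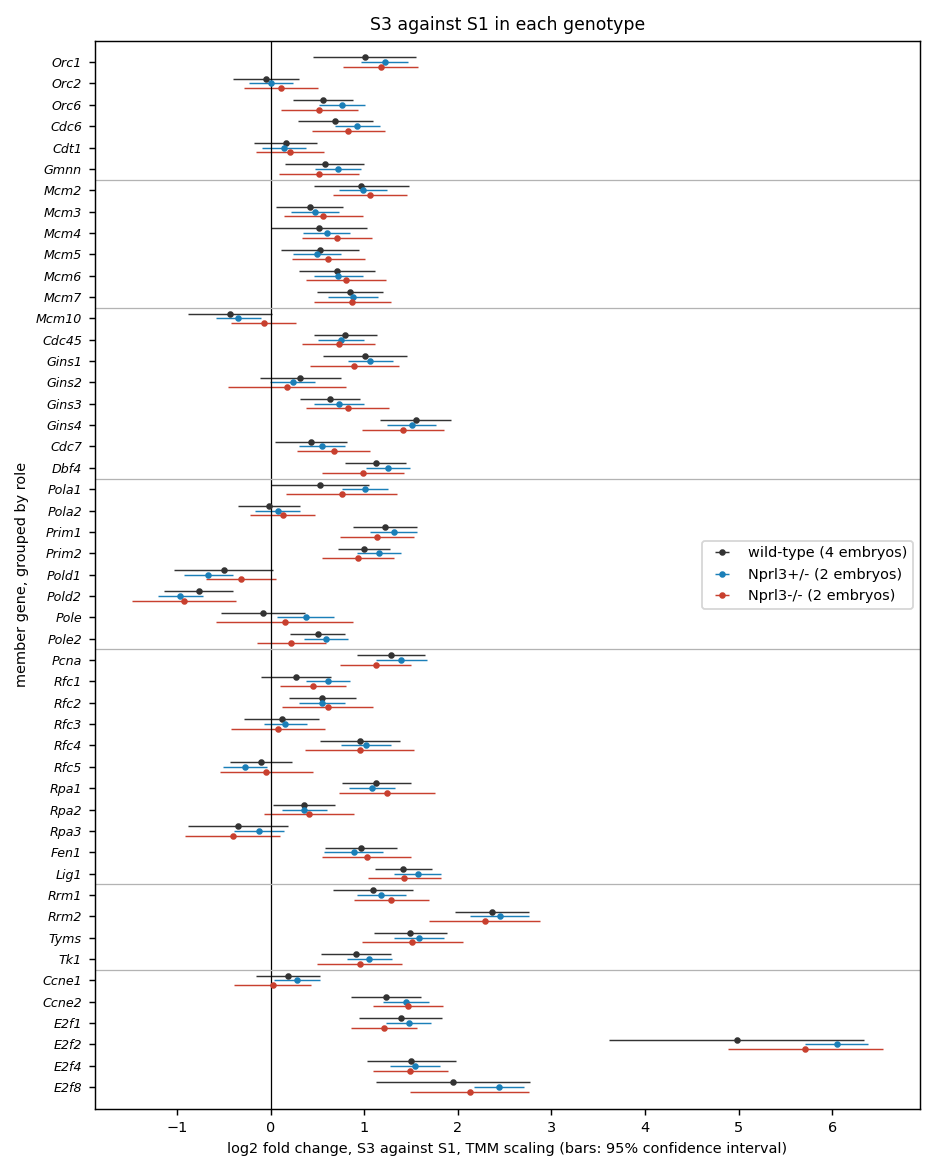
Log2 fold change of S3 against S1 with its 95% confidence interval for each of the 49 genes, in wild-type (4 embryos), Nprl3+/- (2 embryos) and Nprl3-/- (2 embryos), on the TMM scale. The 3 genotypes lie close together for most genes, E2f2 is far to the right (4.98, 6.05 and 5.71) and Pold2 to the left in each.

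The next question was whether loss of Nprl3 alters the replication genes at either stage. At S1, 0 of the 49 genes passed the test between KO and wild-type (0.00712% of all 14039 genes tested did, in either direction), and 0 had an unadjusted p under 0.05. DESeq2 called 0 of the 49 as well. Their median log2 fold change was -0.093, against -0.0071 for all genes, and the 95% interval lay within 2-fold either way for 46 of 49. The wide ones were E2f2, E2f8 and Pola1. E2f2, at 7.97 and 13.1 CPM in KO embryos 2 and 9 against 23.1, 5.53, 11.4 and 50 CPM in wild-type, had a log2 fold change of -1.07 (95% interval -2.88 to 0.74, adjusted p = 1.0), and the KO values lay inside the wild-type range. The 5 genes with the smallest p were Gins3, E2f2, Pola1, Lig1 and Tk1. Gins3, at 25.9 and 22.8 CPM in KO and 26.6, 28.4, 28.3 and 34.9 CPM in wild-type, was the one gene of the 49 whose KO values were beyond all wild-type values (9.84% of all genes tested did not overlap in either direction), with a log2 fold change of -0.27 ± 0.19. Pola1 was at 40.8 and 56.3 CPM (-0.44), Lig1 at 188 and 171 CPM (-0.22) and Tk1 at 134 and 113 CPM (-0.22) in KO S1 cells, each with unadjusted p of 0.19 or more.

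At S3, where the fit was tighter, 0 of 49 passed again and 0 had an unadjusted p under 0.05 (0.559% of all 11804 genes tested were called), and DESeq2 again called none of the 49. The median log2 fold change was -0.04, against 0.0072 for all genes. For all 49 genes the 95% interval excluded a 2-fold difference, and for 43 it excluded a 1.5-fold one. Mcm10 had the smallest p, at 97.4 and 95.6 CPM in KO embryos 2 and 9 and 97.4, 82.4, 83.9 and 81 CPM in wild-type (0.18 ± 0.13, unadjusted p = 0.21, adjusted p = 0.82). E2f4 followed at 789 and 883 CPM in KO (-0.20 ± 0.15) and Lig1 at 521 and 457 CPM (-0.17 ± 0.14). Each of these 3 genes had a KO value inside the wild-type range. Orc2, at 156 and 156 CPM in KO against 144, 149.9, 141 and 136 CPM in wild-type, was the 1 gene without overlap (18.5% of all genes tested), with a log2 fold change of 0.14 ± 0.12. E2f2 was at 501 and 620.4 CPM (-0.29 ± 0.24, 95% interval -0.84 to 0.25), and Rrm2 at 5341 and 3967 CPM (-0.23 ± 0.20). By role, the medians ran from -0.19 for the cyclin E and E2F genes to 0.015 for licensing.

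**Figure D5:**
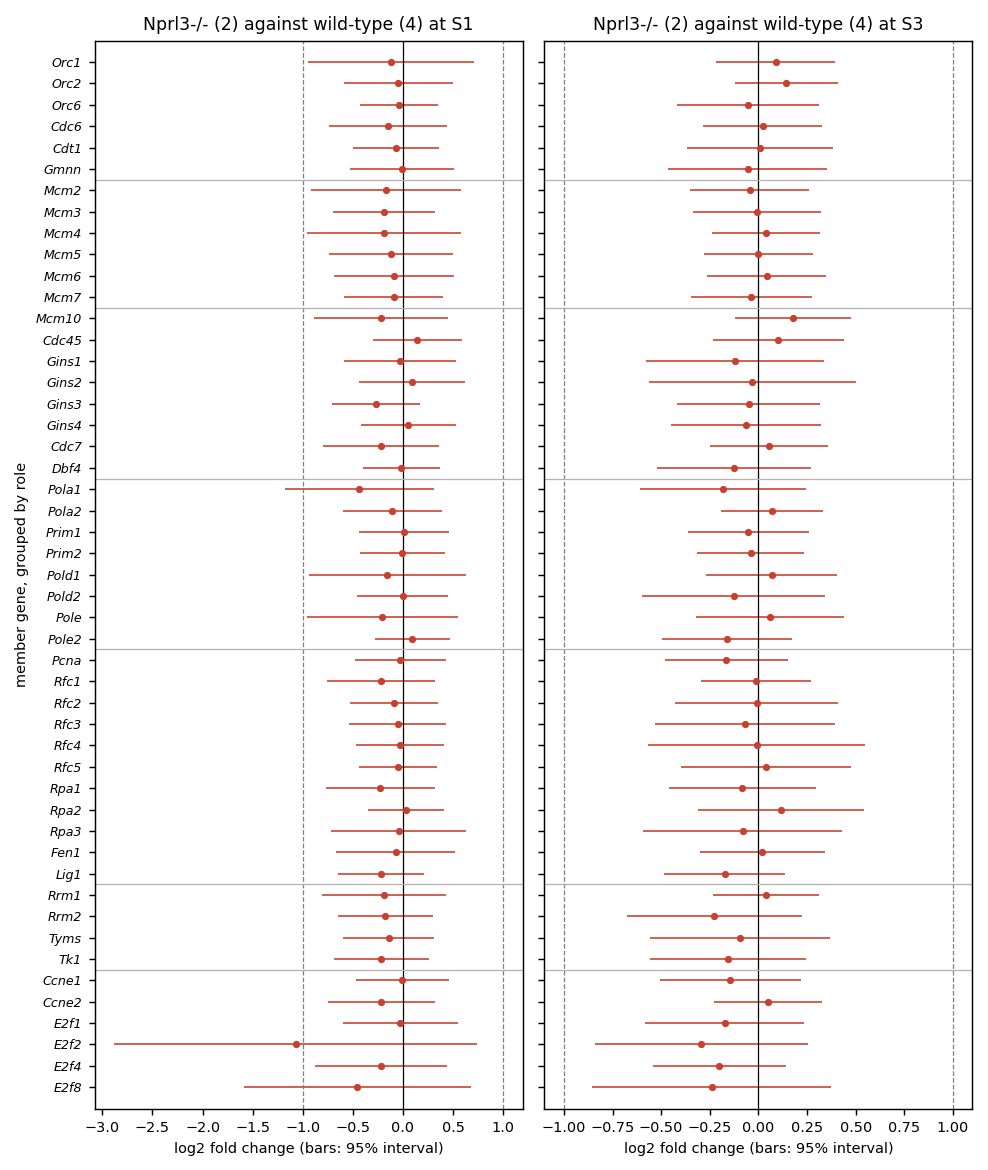
Log2 fold change of Nprl3-/- (2 embryos) against wild-type (4 embryos) with its 95% interval for each of the 49 genes at S1 (left) and S3 (right), with dashed lines at a 2-fold difference either way. The axes of the panels differ, each interval covers 0, and at S3 each interval lies between the dashed lines.

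The change from S1 to S3 did not differ detectably between KO and wild-type: in the interaction 0 of 49 genes passed or had an unadjusted p under 0.05 (0.00742% of 13485 genes tested passed), DESeq2 called 0, and the median was 0.076 against 0.039 for all genes. The intervals were wider here, within 2-fold for 41 of 49, and for E2f2 ran from -1.10 to 2.68 around a difference of 0.79. Between KO and wild-type embryos of the same sex, where each KO group is 1 embryo, the median log2 difference of the 49 genes at S3 was -0.043 in males and -0.043 in females, and at S1 -0.28 in males and 0.064 in females. Without wild-type embryos 0 and 8, or with sex in the model, 0 of the 49 were called between KO and wild-type at either stage. At S3 far fewer of all genes were called without those embryos than with sex, and the counts are given in the section on processing. Without those 2 embryos the median was 0.0082 at S1 and -0.082 at S3.

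Het embryos were compared with the same wild-type libraries as the KO embryos. Of the 49 genes 0 passed at S1 and 0 at S3, with 1 and 0 at an unadjusted p under 0.05, and of all genes tested 0% passed at either stage (DESeq2 called 0 of the 49 at both). The median was 0.019 at S1 and 0.10 at S3. At S3 9 genes were above all wild-type values (Cdc6, Gmnn, Gins4, Prim2, Rfc1, Rfc2, Rpa3, Lig1 and Tk1) and Ccne2 was below them, 10 of 49 in all, against 13.2% of all genes tested. Rpa3, with the smallest p, was at 80.5 and 84.7 CPM in Het embryos 3 and 4 and at 50.2, 79.2, 72.3 and 52.4 CPM in wild-type (0.37 ± 0.19, unadjusted p = 0.091, adjusted p = 0.9). Gmnn was at 304 and 322 CPM (0.27 ± 0.16) and Tk1 at 321 and 318 CPM (0.22 ± 0.15), which is just above wild-type embryos 1 and 5 for both. At S1 7 genes did not overlap, 4 above (Gins2, Pold2, Rfc5 and Rpa2) and 3 below (Dbf4, Pola1 and Pole), against 18.8% of all genes tested.

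The Het results changed when sex entered the model. At S1 E2f2 was then called lower by edgeR (-1.97 ± 0.42, adjusted p = 0.0405) and by DESeq2 (-1.98 ± 0.39, adjusted p = 2.80e-05), beside 1.32% of all 13818 genes called higher and 1.55% lower by edgeR. The main test without sex gave -1.27 ± 0.77 for it (adjusted p = 0.91). It stood at 10.3 and 8.2 CPM in Het embryos 3 and 4, inside the wild-type range but under wild-type males 0 and 8, which had 23.1 and 50 CPM. The globin share was 0.104% and 0.137% in these Het S1 libraries, against 1.07% and 1.00% in those males, and its part in this call was not tested. E2f8, at 20.1 and 17.3 CPM in Het S1 cells, was called lower by DESeq2 with sex (-1.11 ± 0.35, adjusted p = 0.035) but not by edgeR with sex (adjusted p = 0.16). At S3 edgeR with sex called 14 genes higher and 1 lower (8.84% and 9.25% of the 11746 genes tested). The largest were Rpa3 (0.68 ± 0.10, adjusted p = 0.0031), Gmnn (0.50 ± 0.094, adjusted p = 0.0068) and Tyms (0.48 ± 0.10, adjusted p = 0.010). Subunits of the clamp loader and of GINS were among the others called higher. Of the clamp loader these were Rfc4 (0.46), Rfc2 (0.42), Rfc3 (0.38) and Rfc5 (0.36), and of GINS Gins1 (0.45), Gins2 (0.44) and Gins4 (0.33). Tk1 (0.41), Rpa2 (0.40), Orc6 (0.35) and Cdc45 (0.31) were the rest, and Pola1 (-0.40 ± 0.096, adjusted p = 0.018) was the one lower. DESeq2 with sex also called Cdt1, Pcna and Rrm2 higher and E2f2 lower (-0.44 ± 0.15, adjusted p = 0.015). Without wild-type embryos 0 and 8, 0 of the 49 were called between Het and wild-type at either stage, and the median at S3 was 0.013. Few of all genes were called in that fit, as given in the section on processing. Both Het embryos are male, so this model sets them against wild-type males 0 and 8. Those 2 embryos stood apart from wild-type females 1 and 5 at S3, where 29 of the 49 genes were higher in both females than in both males and 9 were lower in both (29.7% and 30.3% of 11675 genes). The median log2 difference of the 49 genes was 0.20 between Het and wild-type male embryos and 0.023 between Het and wild-type female embryos. KO female 2 was above KO male 9 by 0.19 in the median. The sum of the hepatoblast markers at S3 was 1050 and 646 CPM in wild-type embryos 0 and 8, 323 and 245 CPM in embryos 1 and 5, 177 and 238 CPM in the Het embryos, and 113 and 284 CPM in KO embryos 2 and 9, and its part in these differences was not tested. At S3 the Spearman correlation of a gene's deviation from the wild-type mean with its length was 0.36 and 0.26 in wild-type embryos 0 and 8. It was -0.33 and -0.30 in embryos 1 and 5, -0.34 and -0.32 in the Het embryos, and -0.18 and 0.21 in KO embryos 2 and 9. The part of this trend in the calls was not tested. The sex of the embryo and whatever else separates embryos 0, 8 and 9 from 1 to 5 cannot be told apart among wild-type and KO embryos.

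Beyond the 49, a further list of 60 S-phase genes covered other licensing and helicase factors, further polymerase subunits, chromatin assembly, nucleotide supply and S-phase control. Of the 59 tested, 28 were higher and 13 lower from S1 to S3 in wild-type, beside 30.6% and 35.0% of all genes, with a median of 0.49 against -0.084. The largest rises were in Tfdp2, which encodes a dimer partner of the E2Fs, from 54.8 to 91.5 CPM to 736 to 1124 CPM (13.3-fold, adjusted p = 4.96e-07), and Rb1, the retinoblastoma pocket protein, from 14 to 46.3 CPM to 159.5 to 305 CPM (9.59-fold, adjusted p = 2.71e-05). Next came Asf1b, a histone chaperone (5.12-fold), Dck, a deoxynucleoside kinase of salvage (5.08-fold), and Top1, the topoisomerase that relaxes DNA ahead of the fork (4.89-fold). The largest falls were in Atr, the checkpoint kinase of stalled forks, from 11.2 to 29 CPM to 3.06 to 5.79 CPM (log2 fold change -1.90, adjusted p = 8.20e-04), and Dut, which removes dUTP (-1.14, adjusted p = 0.0024). Mcmbp, which binds free MCM subunits (-1.09), Tk2, the mitochondrial thymidine kinase (-0.95), and Mcm8, a helicase of recombination (-0.90), followed. So nucleotide genes outside the 49 went both ways, Dck up and Dut and Tk2 down, unlike the 4 within. The 20 genes of G2 and mitosis listed for comparison all rose, with a median of 2.15. On the library-size scale 15 of them were higher and 0 lower as well, beside 13.8% and 63.1% of all genes tested.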

How the data were processed

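RNA-seq was performed on S1 and S3 cells sorted from E13.5 foetal livers of 4 wild-type, 2 Het and 2 KO embryos. The labels gave the group, number and sex of each embryo. Alignment by the authors was to mm39 with STAR 2.7.9, and they deposited raw counts per gene from featureCounts 1.6.4 on Ensembl release 104. Per the file headers, read pairs were counted without strand, and pairs assigned to multiple loci or to more than 1 gene were discarded. Genes with near-identical copies or overlapping neighbours are therefore uncertain. Gene symbols came from GENCODE mouse release 39, which matched 54749 of 55416 genes. A further 4 library columns, of no sample analysed here, were set aside.

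Counts were scaled by TMM and tested in edgeR 4.0.16 (glmQLFit and glmQLFTest, default settings) in R 4.3.3, on genes with a mean above 10 normalized counts over the libraries compared. Benjamini-Hochberg adjustment ran over all genes tested, and an adjusted p under 0.05 was called. S3 was compared with S1 within a genotype, KO and Het with wild-type within a stage, and KO with wild-type in an interaction with stage, with no covariate. Printed CPM values were scaled over all 16 libraries together. DESeq2 1.42.0, other scalings and filters, sex as a covariate, a block for embryo and leaving out embryos were alternatives, and library size alone and leaving out wild-type embryos 0 and 8 were added after the data were seen. The test was checked on simulated counts for comparisons of wild-type and KO libraries, and Het comparisons were not simulated. These counts had the same dispersion for each gene and the same mix of RNAs in each library apart from the changes added. The check therefore does not cover shifts of that mix between stages or embryos. Same-numbered libraries of both stages come from 1 animal. Their deviations from the group means correlated, over 13402 genes, at 0.050, 0.29, 0.41 and 0.41 for wild-type embryos 0, 1, 5 and 8, at 0.069 for the Het pair and at 0.53 for the KO pair.

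The 49 genes, the other lists and the markers were chosen with earlier results of these data known, so their counts are descriptions and no test was made over a list. Named with values are lead genes of each role, those with the largest change from S1 to S3, those called in a comparison of genotypes (0 in the main test), and the 5 with the smallest p in KO against wild-type at each stage. Of the 60 other S-phase genes, the 5 largest rises and 5 largest falls were named. Each library held 20666044 counts or more, and the groups compared held 2 or 4 embryos.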

Additional observations from a re-analysis of the deposited data

Results flagged for a closer look

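Of 98 groups of 4 wild-type values tested (49 genes at 2 stages), 6 held a value far from the other 3 by Dixon's test, and chance alone flags about 1 in 20. All 6 were in the S1 library of embryo 8. It was the highest for Mcm3 (587 CPM, against 363 to 395 CPM in the other 3) and Mcm10 (183 CPM, against 95.4 to 97.8 CPM). It was the lowest for Orc6 (180.3 CPM, against 212 to 214 CPM), Gins1 (37.6 CPM, against 56.1 to 59.8 CPM), Pold2 (152 CPM, against 194 to 202 CPM) and Rfc3 (88.2 CPM, against 121 to 126 CPM). The cause was not tested. Without embryo 8, 35 of the 49 genes were higher from S1 to S3 in wild-type and 1 lower, against 33 and 1 with it, and of all genes 31.7% were higher and 33.7% lower, against 30.6% and 35.0%.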

How the results depend on the processing

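Of the 33 replication genes that rose from S1 to S3 in wild-type, 25 kept their call under each alternative other than library size alone. The exceptions were Gmnn, Mcm3, Mcm5, Cdc7, Pole2 and Rfc2 with upper-quartile scaling, Cdc7 with globins out of the scaling, Mcm3, Mcm5 and Cdc7 without a filter and without embryo 1, the same 3 and Gmnn without embryo 0, and these 4, Cdc6, Mcm6, Pole2 and Rfc2 without embryo 5. The counts changed most with library size alone, where in wild-type, KO and Het 5, 8 and 12 were higher, 21, 14 and 22 lower, and the medians were -0.35, -0.098 and -0.22. On that scale 27 genes changed sign in wild-type, 2 of them called on neither scale, at -0.52 (Mcm4) and -0.49 (Pola1). The other 25 were called on 1 or both scales, with log2 fold changes of -0.040 (Orc1), -0.45 (Orc6), -0.35 (Cdc6), -0.87 (Cdt1), -0.43 (Gmnn), -0.074 (Mcm2), -0.62 (Mcm3), -0.50 (Mcm5), -0.33 (Mcm6), -0.18 (Mcm7), -0.22 (Cdc45), -0.00097 (Gins1), -0.69 (Gins2), -0.39 (Gins3), -0.61 (Cdc7), -0.029 (Prim2), -0.51 (Pole2), -0.75 (Rfc1), -0.46 (Rfc2), -0.89 (Rfc3), -0.056 (Rfc4), -0.66 (Rpa2), -0.070 (Fen1), -0.097 (Tk1) and -0.84 (Ccne1). That scale divides by all counts, globins included. Upper-quartile scaling gave 27 higher and 3 lower genes in wild-type and as many in KO, and medians of 0.60 in KO and 0.61 in Het. The fit over all 16 libraries gave 3 lower in wild-type and 1 in Het. For upper-quartile scaling and this fit no share of all genes is given, so these counts are not read against the rest of the genes. In Het the median was 0.64 without a filter and 0.79 with filterByExpr. Leaving out wild-type embryos 0 and 8 gave a median of 0.92 in wild-type and of -0.16 in the interaction. With embryo as a replicate block 36 genes were higher in wild-type and 3 lower in KO, and for the pairing no other count moved by over 1.5 times. Leaving out 1 embryo gave 25 to 35 higher and 1 to 2 lower in wild-type (7383 to 8864 of all genes called, medians 0.58 to 0.85), 19 to 26 higher and 1 lower in KO (5483, 0.74 to 0.84) and 22 higher and 0 to 1 lower in Het (5499 to 5826, 0.81 to 0.86). Those of KO and Het come from the fit over all libraries. In KO against wild-type 0 of the 49 were called under each alternative run, at S1 and S3, while of all genes 45 (DESeq2), 7 (no filter), 2 (all libraries), 21 (edgeR with sex), 171 (DESeq2 with sex), 0 (library size) and 2 (embryos 0 and 8 out) were called at S1, against 1. At S3 these were 259 (DESeq2), 43 (upper quartile), 356 (no filter), 114 (all libraries), 547 (edgeR with sex), 730 (DESeq2 with sex) and 5 (embryos 0 and 8 out), against 66. Without 1 embryo they were 0 to 2 at S1 and 11 to 42 at S3, with medians of the 49 of -0.17 to -0.018 and -0.14 to 0.077. In Het against wild-type at S1 sex in the model gave 1 (edgeR) and 2 (DESeq2) lower replication genes, medians of -0.15 and -0.16, and 397 and 815 of all genes, against 30 by DESeq2 without sex and 5 without embryos 0 and 8. At S3 it gave 14 and 17 higher, 1 and 2 lower, and 2124 and 2148 of all genes, against 1 by DESeq2, 57 without a filter and 8 without embryos 0 and 8. Without 1 embryo 0 of all genes at S1 and 0 to 3 at S3 were called, with medians of -0.058 to 0.042 and 0.050 to 0.13. The interaction had 12 (DESeq2), 3 (no filter) and 2 (all libraries) of all genes called, against 1, and 1 without any 1 embryo, with medians of -0.047 to 0.092. Apart from library size alone and sex, whose construction is given, the cause of these shifts was not tested. All 49 genes passed the filter on low counts in each comparison, and what a lower depth would give was not tested.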

Other observations

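At S3 the 29 genes that were higher in both wild-type females than in both males (29.7% of all genes were) had a median merged exon length of 3506 bases, and the 9 that were lower (30.3% of all genes), Orc1, Dbf4, Pola1, Pole, Rrm1, Ccne2, E2f2, E2f4 and E2f8, one of 5443 bases. Over all 11675 genes of the S3 libraries, the Spearman correlation of a gene's deviation from the wild-type mean with its length was 0.36, 0.26 and 0.21 in wild-type embryos 0 and 8 and KO embryo 9, and -0.33, -0.30, -0.34, -0.32 and -0.18 in wild-type embryos 1 and 5, Het embryos 3 and 4 and KO embryo 2. The genes of 1 library are not independent, and the libraries share the wild-type mean. At S1 the value was 0.40 in wild-type embryo 8, 0.061 in KO embryo 9, and between -0.40 and -0.12 in the other 6 libraries.

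Other short motifs in the promoters were counted in the same way, on both strands. The CCAAT box was found for 24 of 39 replication genes (61.5%), for 15 of 17 G2 and mitosis genes (88.2%) and for 41.1% of all genes in the promoter table, and AGATAA or TGATAA, the GATA spellings searched, for 4 of 39 (10.3%), 1 of 17 (5.88%) and 21% of all genes. The E2F spellings were found for 16 of 49 other S-phase genes (32.7%) and for 1 of 17 G2 and mitosis genes (5.88%). Among the replication genes with a promoter, 10 of 26 that rose from S1 to S3 in wild-type held an E2F site (38.5%), as did 4 of 12 that did not pass the test (33.3%), and Pold2, which fell, held none. The 20 G2 and mitosis genes had a median log2 fold change of -0.26 in KO against wild-type at S3, beside -0.04 for the 49 replication genes. By edgeR's test 0 of the 20 passed, where 0.559% of all 11804 genes tested did. DESeq2 called 1 of the 20, and its count over all genes is given in the section on processing.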
